A study of Mus musculus with 7 samples.

Results

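The transcripts examined here are 36 genes of coagulation and fibrinolysis, taken by name from a list of circulating clotting factors, their cofactors, inhibitors and receptors, out of 23347 genes counted in mouse liver. Livers came from male mice on a C57BL/6 background. Hepatocyte-specific knockouts of B4galt1 (B4galt1 hep-/-), which encodes a Golgi galactosyltransferase that adds galactose to N-glycans, carried floxed B4galt1 alleles and Cre driven by the albumin promoter. Littermates with the floxed alleles and no Cre (B4galt1 flox/flox), called WT in the sample labels, were the controls. Both groups were 6 to 8 weeks old at the start and ate CDAHFD, a choline-deficient, methionine-poor high-fat diet that produces steatohepatitis with fibrosis, for 15 weeks. RNA of 4 control and 3 knockout livers was sequenced, 1 library per mouse, so the spread reported is that between mice. No mice on chow entered the comparison, and all differences are therefore between 2 genotypes that share the diet.

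Coagulation is a cascade of plasma proteases that ends when thrombin cuts soluble fibrinogen into fibrin and factor XIII crosslinks the fibrin strands. Serpins and the protein C pathway restrain the cascade, and plasmin, made from plasminogen by urokinase or tissue plasminogen activator, dissolves the clot. Hepatocytes make most of these proteins and secrete them as N-glycoproteins, whereas factor VIII, von Willebrand factor and thrombomodulin are made mainly by endothelial cells. The question addressed was whether the transcripts of these factors differed in abundance between livers with and without hepatocyte B4galt1.

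Libraries held 37838654 to 39668509 counts in the control group and 30608271 to 34586588 in the knockout group, and 3 counts corresponded to 0.0689 to 0.0986 CPM, the count scaled to a fixed library size after TMM normalization. The targeted gene did not follow the labels in every mouse. B4galt1 was at 48.7, 53.0, 49.2 and 51.6 CPM in the controls and at 28.4, 23.9 and 53.7 CPM in the knockouts, so that the library labelled B4galt1 hep-/- 3 lay at the control level. These are counts over the whole gene, which exons the allele removes is not given in the sources used here, and a deletion of part of the gene need not lower them. Other values of this library lay on either side. On the knockout side were a mitochondrial share of 14.4% (controls 3.88% to 8.0%), Lyz2 at 266 CPM (controls 573 to 1555), Anxa5 at 115 CPM (259 to 309) and Rxra at 162 CPM (294 to 383), genes called with this library in the group. At the control level were the hepatocyte genes Cps1 at 3170 CPM (controls 3031 to 4059, other knockouts 1513 and 1054), Ass1 at 2779 CPM (2492 to 2988, other knockouts 1420 and 1418) and Trf at 14429 CPM (13643 to 16483, other knockouts 10092 and 7448). Above every control in this library were Alb at 112935 CPM (57197 to 90888), Ttr at 5195 CPM (2517 to 4015) and Apoa1 at 18641 CPM (7168 to 13927). So were Apoa2 at 7872 CPM (3326 to 5873) and Tat at 2956 CPM (956 to 2658), while Ahsg lay within the control range. A wrong label was not tested. The library was kept in the knockout group by its label, and statements on every knockout liver include it. Mitochondrially encoded genes took 5.79% ± 1.70 (SD, n = 4) of the counts in controls and 19.7% ± 4.58 (SD, n = 3) in knockouts (exact permutation test over mice, two-sided, p = 0.0286, and no smaller p is possible here). Their part in the results below was not tested. Leaving these genes out of the library gave the same 3 called members, beside 7.92% of genes called lower and 7.89% higher in that fit. Hepatocyte markers were high in every liver (102913 to 178845 CPM summed over 9 genes, 0 called), in keeping with the tissue label. Of 10 stellate and fibroblast markers Lum was called (log2 fold change −1.08), and of 5 erythroid markers Alas2 was lower (−1.24) and Hba-a1 higher (1.11). CPM values are TMM-normalized.

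A transcript was called changed at an adjusted p under 0.05 with an absolute log2 fold change above 0.58, with the quasi-likelihood test of edgeR and the Benjamini-Hochberg method applied over 15179 genes. All 36 members were abundant enough to be tested. F13b, Serpind1 and Plau were lower in B4galt1 hep-/- livers and 0 members were higher. Over all genes tested, 7.83% were called lower and 8.0% higher (15.8% in either direction), so the members' share called lower, 8.33%, was near the background. The log2 fold change was negative for 29 members and positive for 7, with a median of −0.25, against a median of 0.02 and 48.7% negative over all genes. At an unadjusted p under 0.05 there were 7 members, beside 32.9% of all genes. In 4 members, F7 and the 3 called ones, every knockout liver lay below every control liver, a pattern shown by 15.0% of all genes, and in 0 members did every knockout liver lie above, as 13.6% of all genes did (28.6% in either direction).

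**Figure D1:**
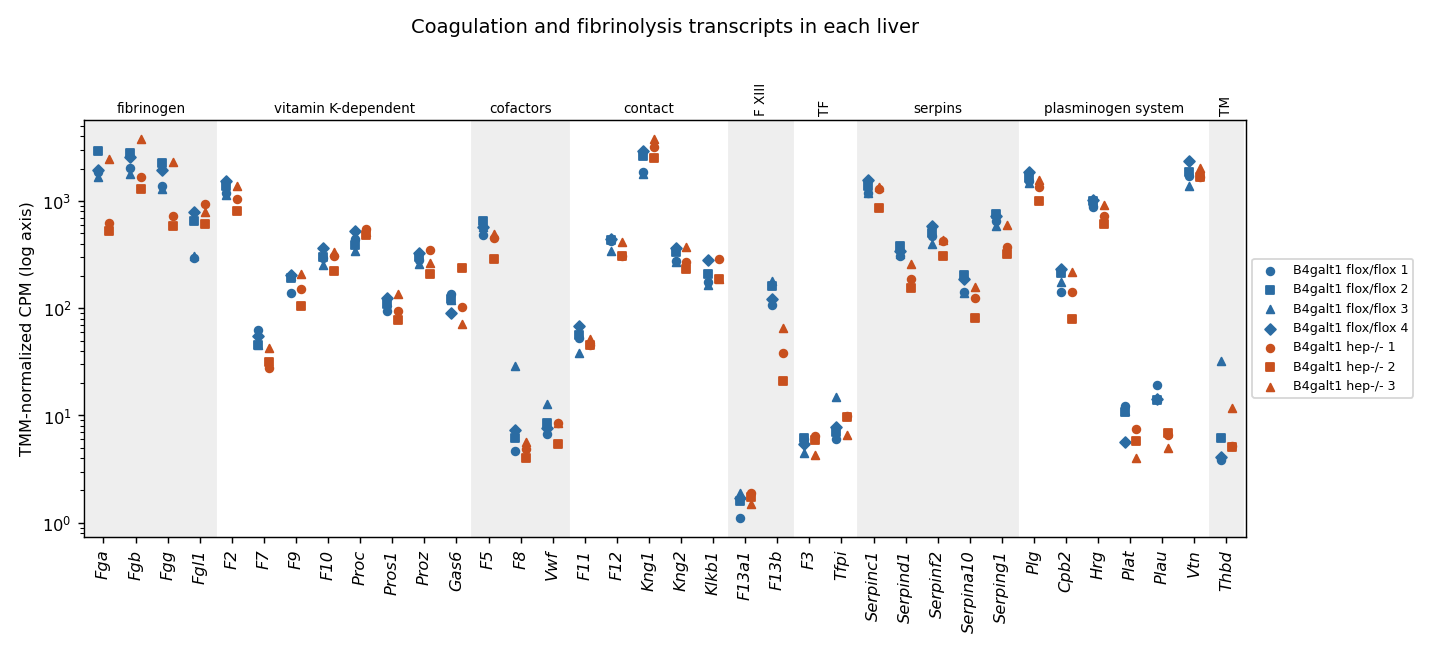
TMM-normalized CPM (log axis) of the 36 coagulation and fibrinolysis transcripts, grouped by role, with 1 point per liver (blue, 4 B4galt1 flox/flox; orange, 3 B4galt1 hep-/-; the symbol marks the replicate). The orange points of F7, F13b, Serpind1 and Plau lie below all blue points, and the triangle of B4galt1 hep-/- 3 lies far above the other orange points for Fga, Fgb and Fgg.

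**Figure D2:**
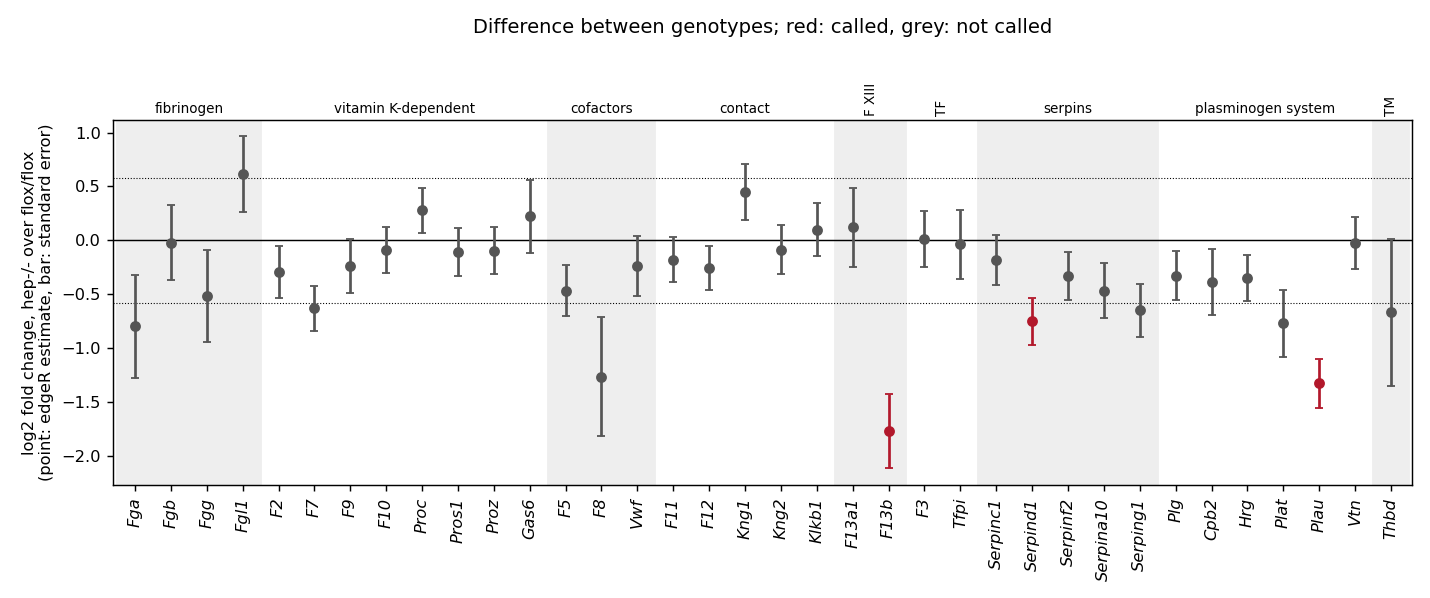
Log2 fold change of each member, B4galt1 hep-/- over B4galt1 flox/flox, as the edgeR estimate with its standard error; dotted lines mark ±0.58, and the called genes are red. Red points are F13b at −1.77, Plau at −1.33 and Serpind1 at −0.75.

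The members divided by abundance into 2 classes in control livers. Per kilobase of transcript, 28 members were at 19.4 to 1346 CPM and 8 (F3, F8, F13a1, Tfpi, Plat, Plau, Vwf and Thbd) were at 0.322 to 6.15 CPM. Fgb was the most abundant at 1346 ± 268 CPM per kb (SD, n = 4), followed by Vtn at 1049 ± 234, Fgg at 817 ± 217 and Kng1 at 771 ± 190. The SD ranges of neighbours in this order overlapped. At the other end were Vwf at 0.994, F8 at 0.947 and F13a1 at 0.322 CPM per kb. Within the knockout group the abundant class did not vary independently from gene to gene. The library labelled hep-/- 3 was the highest of the 3 knockout livers for 23 of the 28 abundant members, and hep-/- 2 was the lowest for 23 of them. Over all 36 members hep-/- 3 was highest for 69.4% and hep-/- 2 lowest for 72.2%, beside 33.1% and 39.2% of all genes tested. In the controls, flox/flox 4 was the highest of its group for 18 members (50%) and flox/flox 3 the lowest for 19 (52.8%), beside 25.8% and 29.5% of all genes tested.

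Fibrinogen is a hexamer of paired alpha, beta and gamma chains, encoded by Fga, Fgb and Fgg, which lie together on chromosome 3. Fga and Fgg were lower relative to Fgb in every knockout liver than in any control, while the ratio of Fga to Fgg overlapped between groups. The upstream windows of all 3 are printed because the chains share a protein but not the same set of sequence matches. Each is the 250 bases before the RefSeq start of the gene (build GRCm38.p6), on the gene's strand, 5′ to 3′. Capitals mark matches to any of 4 motifs, searched on both strands: CAAAGNNCA (an HNF4-type direct repeat), TTNNGCAA (C/EBP), TTCNNNGAA (STAT) and CTGGGAA (an IL-6 response element, whose reverse complement may overlap a STAT match).
Fga, chr3:83025903-83026152, + strand: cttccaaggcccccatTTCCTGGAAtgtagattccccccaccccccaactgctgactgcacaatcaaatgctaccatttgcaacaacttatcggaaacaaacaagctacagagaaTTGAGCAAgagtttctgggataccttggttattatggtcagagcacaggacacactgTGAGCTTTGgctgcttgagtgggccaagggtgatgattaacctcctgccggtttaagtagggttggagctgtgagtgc
Fgb, chr3:83049864-83050113, - strand: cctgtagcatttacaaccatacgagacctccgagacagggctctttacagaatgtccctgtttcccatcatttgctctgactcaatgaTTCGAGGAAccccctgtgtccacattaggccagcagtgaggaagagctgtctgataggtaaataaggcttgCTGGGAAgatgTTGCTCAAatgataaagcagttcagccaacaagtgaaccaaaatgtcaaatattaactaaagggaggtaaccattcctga
Fgg, chr3:83007474-83007723, + strand: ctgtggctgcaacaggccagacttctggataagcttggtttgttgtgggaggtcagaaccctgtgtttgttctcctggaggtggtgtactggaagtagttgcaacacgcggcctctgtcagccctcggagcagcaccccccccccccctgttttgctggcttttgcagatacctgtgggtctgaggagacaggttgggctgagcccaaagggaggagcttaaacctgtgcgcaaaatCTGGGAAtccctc

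In the Fga window the order from the distal end is STAT, C/EBP and HNF4-type, with no IL-6 response element. The Fgb window holds a STAT match, an IL-6 response element and a C/EBP match, in that order. Fgg holds the IL-6 response element letters alone, beginning 13 bases before the start. Windows were found for 26 of the 36 members (28 windows, since a gene can have several starts). HNF4-type letters were in 14.3% of the members' windows and in 5.49% of all 32851 windows, C/EBP letters in 25.0% and 9.56%, STAT letters in 14.3% and 7.02%, and CTGGGAA in 14.3% and 9.10%. The F13b and Serpind1 windows had no match to any of the 4, and that of F7 an HNF4-type match. These are descriptions of letters, not of binding.

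Fga was at 1854, 2901, 1679 and 1927 CPM in controls and at 617, 522 and 2463 CPM in knockouts. Livers hep-/- 1 and hep-/- 2 were therefore far below all controls, while the liver labelled hep-/- 3 was above 3 of the 4 controls. The log2 fold change was −0.80 (SE 0.48, 95% interval −1.84 to 0.24, edgeR quasi-likelihood adjusted p = 0.266). Fgg, at 1381, 2260, 1306 and 1955 CPM against 721, 588 and 2303 CPM, had hep-/- 3 just above all controls and the other knockouts far below them, with a log2 fold change of −0.52 (SE 0.43, edgeR adjusted p = 0.427). Fgb was at 2029, 2787, 1802 and 2563 CPM in controls and at 1678, 1303 and 3802 CPM in knockouts, with hep-/- 3 again the highest of all 7 livers. Its log2 fold change was −0.02 with a 95% interval of −0.78 to 0.74 (edgeR adjusted p = 0.974). Between the knockout livers, hep-/- 3 exceeded the mean of the other 2 by 4.33-fold for Fga, 3.52-fold for Fgg and 2.55-fold for Fgb. Without that liver the log2 fold changes were −1.89 for Fga, −1.41 for Fgg and −0.63 for Fgb, given as a description because the liver stands apart in these same genes. On leaving out each of the 7 mice in turn, Fga and Fgg were called in 1 fit, this one. The value of Fgb near 0 with all mice rested on hep-/- 3 as well.

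The ratio of chains within a liver does not depend on library size. Counts of Fga per kilobase relative to Fgb were 0.463, 0.527, 0.471 and 0.380 in the controls and 0.186, 0.203 and 0.328 in the knockouts. Every knockout was below every control, hep-/- 3 included. The means were 0.460 ± 0.0603 (SD, n = 4) and 0.239 ± 0.0775 (SD, n = 3), a log2 difference of −0.98 (two-sided exact permutation test, p = 0.0286, 0.0429 after Benjamini-Hochberg adjustment over the 3 ratios). Fgg relative to Fgb was 0.550, 0.655, 0.585 and 0.616 against 0.347, 0.364 and 0.489, again without overlap, with a log2 difference of −0.60 (exact permutation p = 0.0286, adjusted 0.0429). Fga relative to Fgg was 0.841, 0.805, 0.805 and 0.618 against 0.536, 0.556 and 0.670, and here the groups overlapped (log2 difference −0.38, exact permutation p = 0.0857, adjusted 0.0857). The ratios, like the members, were chosen with earlier results of these data known. With 35 ways to split 4 and 3 mice, 0.0286 is the smallest p possible, and it was reached by the ratios without overlap. The 3 ratios are not independent, since Fga relative to Fgg follows from the others. Single genes without overlap in either direction made up 28.6% of the 15179 tested. The share of other gene ratios without overlap was not tested. These p-values therefore describe the separation of the groups and do not set the fibrinogen ratios apart from other genes.

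**Figure D3:**
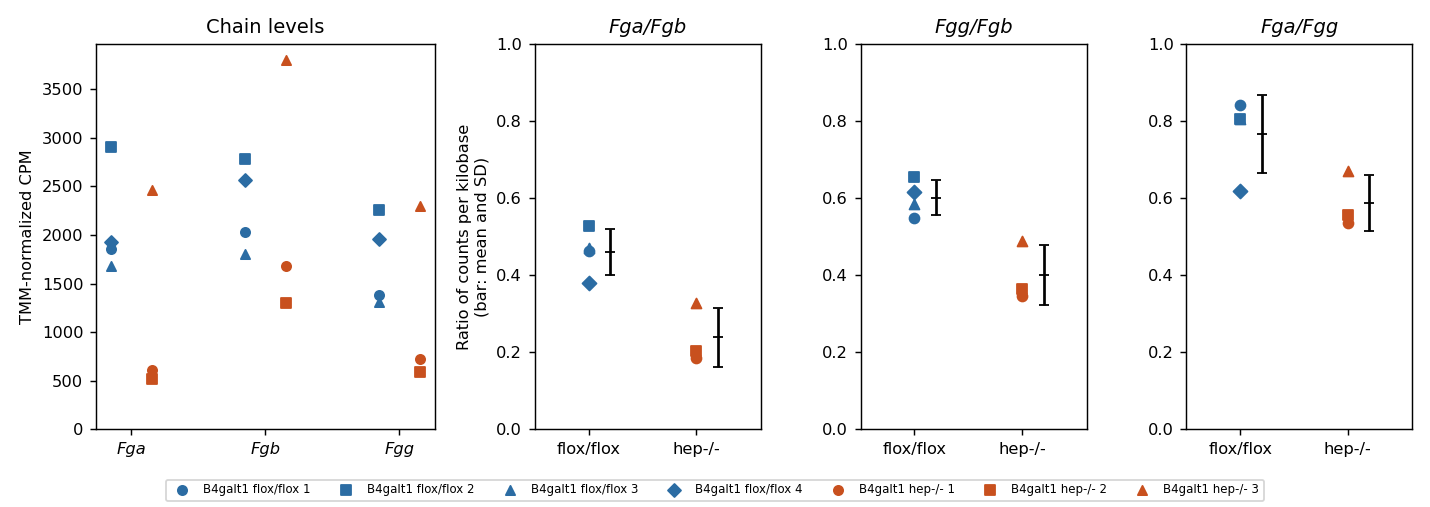
Left, TMM-normalized CPM of the 3 fibrinogen chains in each liver; right, the 3 ratios of counts per kilobase, with 1 point per liver and bars for mean and SD (B4galt1 flox/flox, n = 4; B4galt1 hep-/-, n = 3). The Fga/Fgb and Fgg/Fgb ratios of the knockout livers, at most 0.328 and 0.489, lie below the lowest controls at 0.380 and 0.550.

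Fibrinogen-like 1 (Fgl1), a secreted hepatocyte protein related to the fibrinogen chains that does not form clots, was at 295, 647, 305 and 793 CPM in controls and at 946, 604 and 794 CPM in knockouts. Its log2 fold change, 0.62, was the highest among the members and did not pass the test (SE 0.35, 95% interval −0.15 to 1.38, edgeR adjusted p = 0.242). The controls themselves split into a low pair and a high pair, and the high pair reached the knockout values.

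Factor XIII is the transglutaminase that crosslinks fibrin. Its carrier B subunit, F13b, is a hepatocyte product and showed the largest fall of the 36 members, from 107, 161, 179 and 121 CPM in controls to 38.0, 21.2 and 65.5 CPM in knockouts. All knockout livers lay below all controls, with hep-/- 3 nearest to them. The log2 fold change was −1.77 (SE 0.35, edgeR quasi-likelihood adjusted p = 0.00918). The catalytic A subunit, F13a1, which comes mainly from macrophages and megakaryocytes, was at 1.10 to 1.90 CPM in controls and 1.48 to 1.88 CPM in knockouts (log2 fold change 0.12, SE 0.37, edgeR adjusted p = 0.848). At this level F13a1 gives a 95% interval of −0.68 to 0.92. Platelet and megakaryocyte markers were likewise scarce, with 3 of 8 tested and 0 called.

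The vitamin K-dependent proteins carry gamma-carboxylated glutamates that bind calcium and membranes, and 0 of these 8 members were called. Factor VII (F7), which starts the cascade with tissue factor, was at 63.1, 45.4, 45.5 and 55.4 CPM in controls and at 27.5, 31.3 and 42.5 CPM in knockouts. Its groups did not overlap, but the closest values, 42.5 and 45.4 CPM, were near each other. The log2 fold change of F7 was −0.63 (SE 0.21, edgeR adjusted p = 0.0611). Prothrombin (F2) was at 1195, 1392, 1140 and 1536 CPM against 1033, 800 and 1387 CPM, a log2 fold change of −0.29 with a 95% interval of −0.83 to 0.24 (edgeR adjusted p = 0.427). The proteases factor IX (F9) and factor X (F10) had log2 fold changes of −0.24 and −0.09. Among the anticoagulant members, protein C (Proc) was at 0.28, its cofactor protein S (Pros1) at −0.11, and protein Z (Proz), the cofactor of the factor X inhibitor Serpina10, at −0.10. All of these groups overlapped. Gas6, a growth-arrest ligand of TAM receptor kinases rather than a clotting factor, was at 135, 121, 120 and 91.0 CPM against 102, 235 and 71.9 CPM. In hep-/- 2, Gas6 was 2.71-fold the mean of the other knockout livers, the reverse of the order seen in most abundant members, and its log2 fold change of 0.22 turned to −0.43 without that liver. The same liver held the highest sum of 7 cholangiocyte markers, 198 CPM against 98.8 to 143 CPM in the other livers. Among single markers of other cells, Stab1 (197 CPM), Eng (77.7), Col1a1 (229), Col1a2 (227) and Des (17.2) were also highest of all livers in hep-/- 2. Its endothelial sum, 448 CPM, was the highest of the knockouts, and its macrophage sum, 569 CPM, the lowest. The stellate and fibroblast sum, 1181 CPM, lay between those of the other knockouts. None of the 7 cholangiocyte markers was called between genotypes, and the part of any of these cells in the Gas6 value was not tested.

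The cofactors factor V (F5) and factor VIII (F8) enlarge the activity of factors X and IX, and von Willebrand factor (Vwf) carries factor VIII and tethers platelets. F5, largely a hepatocyte product, was at 477, 654, 577 and 568 CPM against 455, 288 and 492 CPM, with a log2 fold change of −0.47 (edgeR adjusted p = 0.190). F8 was at 4.64, 6.22, 28.7 and 7.37 CPM in controls and at 4.90, 4.04 and 5.69 CPM in knockouts. The estimate of −1.27 for F8 (SE 0.55, edgeR adjusted p = 0.133) rested on flox/flox 3, which was 4.72-fold the mean of the other controls, and was −0.32 without that liver. Vwf was at 6.67, 8.46, 12.8 and 7.63 CPM against 8.57, 5.43 and 8.55 CPM, with overlapping groups and a log2 fold change of −0.24. Thrombomodulin (Thbd), the endothelial receptor that turns thrombin towards protein C, was at 3.84, 6.20, 32.4 and 4.10 CPM against 5.19, 5.13 and 11.6 CPM. Again the highest value was that of flox/flox 3. Its log2 fold change was −0.67 with a wide 95% interval of −2.16 to 0.82 (edgeR adjusted p = 0.527), and its sign rested on flox/flox 3, without which Thbd was at 0.63 (edgeR adjusted p = 0.281).

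F8, Thbd, Vwf and Tfpi, which encodes the endothelial inhibitor of the tissue factor pathway, all had their highest value in flox/flox 3. This liver was highest among controls for 5 of the 8 scarce members, those named and F13a1, and for 1 of the 28 abundant ones, beside 29.7% of all genes tested. It also stood apart in endothelial markers, whose sum over 12 genes was 508 CPM, beside 189 to 259 CPM in the other controls and 294 to 448 CPM in the knockouts. Its macrophage sum (2550 CPM, beside 1200 to 1572 in the other controls) and its stellate and fibroblast sum (1525 CPM, beside 982 to 1209) were high as well. The sinusoidal marker Lyve1 was at 48.4 CPM in flox/flox 3 and at 2.74 to 13.2 CPM elsewhere, and Clec4g was at 90.9 CPM against 19.9 to 28.4 CPM. Of the 12 markers, Kdr was called lower in knockouts (log2 fold change −1.33) and Stab1 (1.11) and Egfl7 (0.84) higher, so the list did not move one way. In whole liver, the number of endothelial cells and the RNA per cell cannot be told apart. Tissue factor (F3), the trigger of coagulation, did not share this order and was at 4.43 to 6.20 CPM in controls and 4.24 to 6.46 CPM in knockouts (log2 fold change 0.01, 95% interval −0.55 to 0.57, edgeR adjusted p = 0.983). Tfpi was at 6.09, 7.0, 15.0 and 7.74 CPM against 9.87, 9.74 and 6.58 CPM, with a log2 fold change of −0.04 that turned to 0.33 without flox/flox 3.

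The contact system starts the intrinsic pathway and releases bradykinin from kininogen, and its 5 members showed no called change. Kininogen 1 (Kng1) was at 1847, 2642, 1799 and 2930 CPM in controls and at 3183, 2511 and 3756 CPM in knockouts, a log2 fold change of 0.45 (SE 0.26, edgeR adjusted p = 0.251). Kng2, a near copy of Kng1, was at −0.09, and how reads were shared between these paralogs is uncertain. Plasma prekallikrein (Klkb1) had a log2 fold change of 0.10, factor XI (F11) of −0.18 and factor XII (F12) of −0.26, each with overlapping groups.

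Serpins trap proteases in a covalent complex, and all 5 serpin members had negative log2 fold changes. Heparin cofactor II (Serpind1), an inhibitor of thrombin, was at 304, 382, 321 and 341 CPM in controls and at 188, 155 and 256 CPM in knockouts. The groups did not overlap, and the log2 fold change was −0.75 (SE 0.22, edgeR quasi-likelihood adjusted p = 0.0395). This call is near the threshold and was lost on leaving out any of 5 of the 7 mice (edgeR adjusted p of 0.0689 to 0.110), where the members called lower were F13b and Plau alone. The call was kept without flox/flox 1 and without hep-/- 3. C1 inhibitor (Serping1), which restrains the contact and complement proteases, was at 651, 753, 586 and 717 CPM against 372, 323 and 598 CPM. Only hep-/- 3 reached the control range, and the log2 fold change of −0.65 did not pass the test (SE 0.25, edgeR adjusted p = 0.0920). Antithrombin (Serpinc1), the main thrombin inhibitor of plasma, was at 1197, 1388, 1185 and 1556 CPM against 1287, 866 and 1360 CPM (log2 fold change −0.19, 95% interval −0.70 to 0.33, edgeR adjusted p = 0.614). The plasmin inhibitor Serpinf2 was at −0.33 and Serpina10 at −0.47 on the log2 scale, both with overlapping groups.

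Fibrinolysis members all had negative log2 fold changes, and 1 of 6 was called, beside 48.7% of all genes with negative values and 7.83% called lower, a count too small to be read against that background. Urokinase (Plau), which cuts plasminogen to plasmin, was at 19.3, 14.0, 14.5 and 14.1 CPM in controls and at 6.59, 6.91 and 4.93 CPM in knockouts. Here the liver labelled hep-/- 3 was the lowest of all, and the gap between groups was wider than the range of either. The log2 fold change was −1.33 (SE 0.23, edgeR quasi-likelihood adjusted p = 0.00581). Plau is a scarce transcript in liver, and macrophage markers moved with it. Their sum over 11 genes was 1541, 1572, 2550 and 1200 CPM in controls and 634, 569 and 658 CPM in knockouts, with all 11 negative, 0 called higher and 5 called lower, namely Lyz2 (−2.15), Adgre1 (−1.88), Vsig4 (−1.24), Marco (−1.24) and Cd68 (−1.15). Whether Plau fell within a cell type or with the number of such cells was not tested. Tissue plasminogen activator (Plat) was at 12.3, 10.7, 10.9 and 5.62 CPM against 7.5, 5.82 and 4.05 CPM, a log2 fold change of −0.77 (SE 0.31, edgeR adjusted p = 0.108), with flox/flox 4 inside the knockout range.

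Plasminogen (Plg), the precursor of plasmin, was at 1544, 1653, 1476 and 1876 CPM in controls and at 1342, 1010 and 1558 CPM in knockouts. The groups overlapped through hep-/- 3, and the log2 fold change was −0.33 with a 95% interval of −0.83 to 0.17 (edgeR adjusted p = 0.338). Carboxypeptidase B2 (Cpb2), which slows fibrinolysis by removing lysines from fibrin, was at −0.39. Histidine-rich glycoprotein (Hrg), a plasminogen and heparin binder, was at −0.35. Vitronectin (Vtn), an adhesive glycoprotein of plasma and matrix, was at −0.03.

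**Figure D4:**
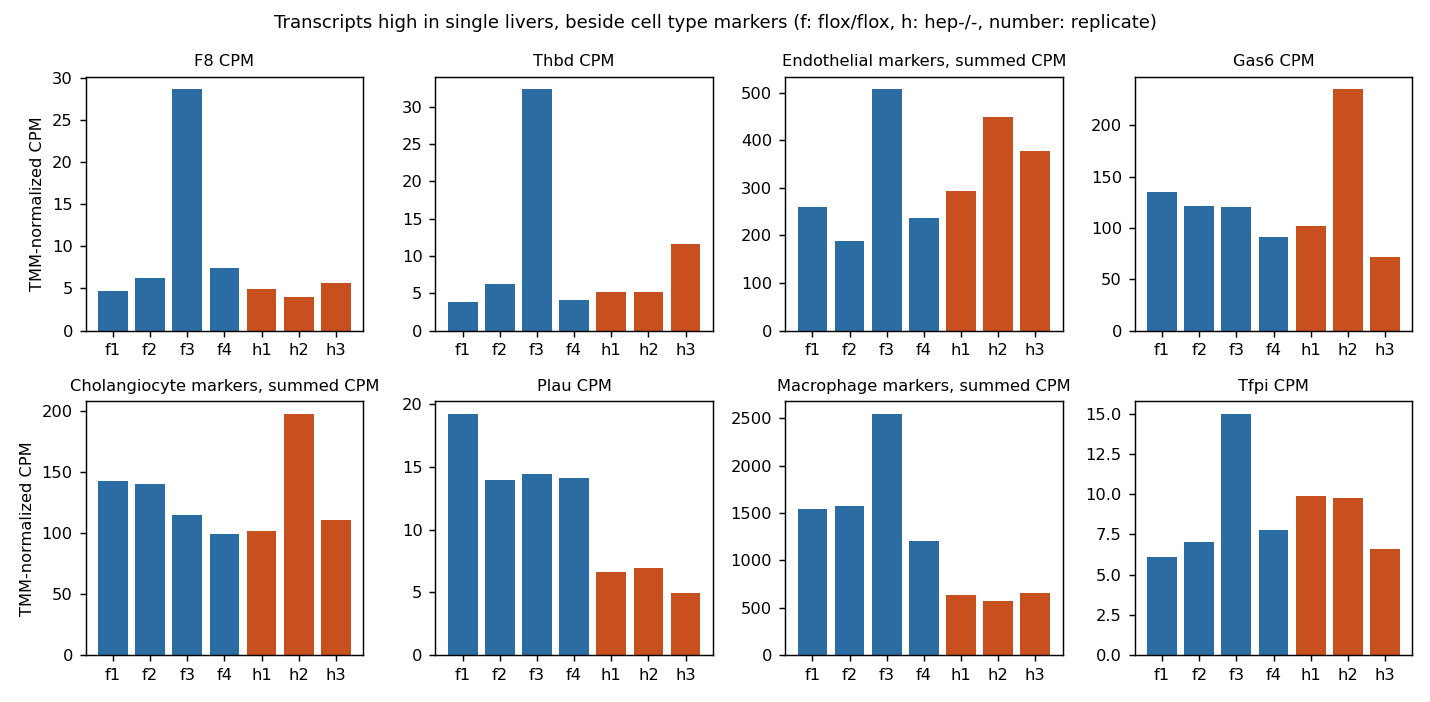
TMM-normalized CPM in each liver for F8, Thbd, Gas6, Plau and Tfpi, beside the summed CPM of endothelial (12 genes), cholangiocyte (7) and macrophage (11) markers; bars start at 0 (blue, B4galt1 flox/flox 1 to 4; orange, B4galt1 hep-/- 1 to 3). F8, Thbd, Tfpi and the endothelial sum peak in flox/flox 3, Gas6 and the cholangiocyte sum in hep-/- 2, and Plau and the macrophage sum are lower in every knockout than in every control.

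The outcome for the members depended on the liver labelled hep-/- 3, the one whose B4galt1 lay at the control level. Without it, 7 members were called lower (F7, F13b, Fga, Fgg, Serpind1, Serping1 and Plau) and 0 higher. That is 19.4% of the members, beside 7.51% of the genes tested in that fit. For several of these genes the omitted liver was itself the high one, so this count is a description and not an independent test. B4galt1 itself had a log2 fold change of −0.52 with all 7 mice (edgeR adjusted p = 0.181) and of −0.96 without this library, a value given with no test, since the library was singled out by B4galt1 itself. On leaving out flox/flox 3 as well, again 7 members were called lower, beside 5.35% of genes.

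Other tests and fits called between 2 and 8 members lower, always including F13b and Plau, and 0 higher. DESeq2 called 5 members lower (F7, F13b, Serpind1, Serping1 and Plau), beside 6.82% lower and 7.47% higher of 22960 genes. That set includes scarce genes that the edgeR filter leaves out, so these shares are not on the same basis as those of edgeR. Limma on log2(FPKM + 1) called 7 of the 33 members it tested, beside 15.9% lower and 5.14% higher, a more one-sided background than that of edgeR. With a pseudocount of 0.1 it called 8 of 33, beside 17.8% and 5.51%. On all genes above 0 it called 5 of 36, beside 4.74% and 1.05% of 22960 genes, scarce ones included. Voom with sample weights called 6, beside 9.53% lower and 10.2% higher. Without the fold threshold edgeR called the same 3, beside 7.93% and 8.06%. With the replicate number as a block it called F13b and Plau, beside 4.05% and 4.30%. Without flox/flox 2 it called the same pair, beside 3.16% and 2.74%. The fits without hep-/- 3, and without flox/flox 3 as well, called 6.28% and 4.04% of genes higher, while 0 members were among them. As a share of all counts, the 36 members took 2.18% ± 0.212 (SD, n = 4) in controls and 1.77% ± 0.390 (SD, n = 3) in knockouts. Without the mitochondrially encoded genes in the total the shares were 2.31% and 2.19%.

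Further genes, 47 listed by function and called the other haemostasis genes below, were read beside the members. They comprise genes of haemostasis, TAM receptors, clearance receptors and 12 liver transcription factors. Of the 47, 46 were in the table, 41 were tested, 9 were called lower and 2 higher, with a median log2 fold change of −0.32, beside 7.83% of all genes called lower and 8.0% higher. Without flox/flox 2 only Anxa5 and Rxra were called lower and 0 higher, beside 3.16% and 2.74% of all genes. Vitamin K cycle genes (5) that carboxylate and process the members all had negative values, from −1.0 for Calu, a calcium-binding protein that inhibits the carboxylase and was the 1 called, to −0.31 for Ggcx, the carboxylase. The cargo receptor pair that carries factors V and VIII out of the endoplasmic reticulum, Lman1 and Mcfd2, was at −0.34 and −0.38 and not called. Of plasma proteins, the factor VII-activating protease Habp2 fell by 0.64 and the protease trap Pzp by 0.99 on the log2 scale. Anxa5, a phospholipid binder of many cells that was listed with them, fell by 1.5. Among receptors and inhibitors, the thrombin receptor F2r fell by 1.06, the plasminogen receptor subunit Anxa2 by 0.88 and the serpin Serpine2 by 0.92, while the plasminogen receptor Plgrkt rose by 1.0. Serpine2 had overlapping groups and was not called without hep-/- 3 (edgeR adjusted p = 0.111). Without hep-/- 2, Plgrkt was at 0.57 and not called (edgeR adjusted p = 0.214). Of 12 liver transcription factors, Rxra (−1.15) and Stat3 (−0.60) were lower and Cebpb (0.94) higher, and Hnf4a (0.12) and Foxa2 (1.04) were not called. Without hep-/- 3 Hnf4a was at −0.10 and Foxa2 at 0.43, and DESeq2 with all mice called Foxa2 higher (adjusted p = 0.0269) and Cebpa lower (−0.67, adjusted p = 0.0369). Cebpa was at −0.67 by edgeR too, with every knockout below every control, and did not pass that test (edgeR adjusted p = 0.0785). The asialoglycoprotein receptor subunits Asgr1 and Asgr2, which clear glycoproteins that lack terminal sialic acid, were at −0.11 and −0.55 and not called.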

How the data were processed

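Liver RNA of 7 mice was sequenced, 1 library per mouse. The authors deposited raw read counts per gene, the unit tested here, and FPKM values, which equal counts divided by transcript length and library total. Per the submitters' processing notes, fastp, HISAT2, HTSeq, DESeq2 and R 3.2.0 were used with genome build GRCm39. The annotation and strand setting are not given in the sources used here. Sample columns not used numbered 0. Genes were filtered with filterByExpr (minimum count 10, minimum total 15), scaled by TMM and tested with edgeR 4.0.16 (quasi-likelihood, Benjamini-Hochberg over 15179 genes, R 4.3.3) in a fit of genotype alone. Genes were called at adjusted p under 0.05 and absolute log2 fold change above 0.58. Intervals are 95% t intervals of edgeR's estimate. Transcript lengths were derived from the ratio of counts to FPKM. Alternatives used limma 3.58.1 and DESeq2 1.42.0, other scalings and filters, and omission of single mice. Code was tested on simulated data. The 36 members, the other haemostasis genes and the marker lists were chosen with earlier results of these data known. By rule, values per mouse are given for members called or without overlap, for the 3 fibrinogen chains and for F2, Plg and Serpinc1, and called genes of the other lists are named. Values per mouse of further members were added after they were seen. Promoter windows came from RefSeq (GRCm38.p6), a different build from that of the counts, and were matched by gene symbol. Replicate numbers did not appear to pair the mice: deviations of same-numbered mice correlated at −0.337, −0.034 and 0.078. So few values cannot exclude a pairing. Some genes and a motif are not reported here.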

Additional observations from a re-analysis of the deposited data

Results flagged for a closer look

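Of 54 quantities examined for a liver far from the rest of the 4 controls, 4 passed Dixon's 95% critical value, where chance gives about 5% (2.7). F8 was at 28.7 CPM in B4galt1 flox/flox 3, beside 4.64 to 7.37 CPM in the other controls. In the same liver Thbd was at 32.4 CPM, beside 3.84 to 6.20 CPM. Plau was at 19.3 CPM in flox/flox 1, beside 14.0 to 14.5 CPM. The Fga to Fgg ratio was 0.618 in flox/flox 4, beside 0.805 to 0.841. The group of 3 knockout livers was not examined in this way.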

How the results depend on the processing

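F13b and Plau were called lower under all 20 alternatives, F13b with log2 fold changes from −2.27 to −1.46, and 0 members were called higher under any of them. Members called lower, 3 in the report, numbered 5 with DESeq2 (6.82% of genes), 7 with limma on log2(FPKM + 1) (15.9% of genes), 8 with a pseudocount of 0.1 (17.8%), 5 with limma on all genes above 0 (4.74%), 6 with voom and sample weights (9.53%), and 2 to 7 on leaving out single mice. The shares for DESeq2 and for limma on all genes above 0 are over 22960 genes, scarce ones included. Fold changes on the log2(FPKM + pseudocount) scale understate low genes, and that scaling moved the median of all genes by −0.12 to −0.13. Leaving out flox/flox 3 and hep-/- 3 together, chosen after seeing the data, gave 7. F8 was called lower (−1.29) only when genes with at least 1 count in any mouse were tested. The members' median log2 fold change stayed between −0.47 and −0.14, while the sign of 12 members, of which 0 were called, turned on leaving out some single mouse.

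With a replicate block, 2 members were called lower (F13b and Plau, beside 4.05% of genes) and 5 of the other haemostasis genes. The numbers did not appear to pair the mice, and 0 knockouts correlated best with their own number, a count too small to exclude a pairing. The other haemostasis genes called lower numbered 2 (without flox/flox 2) to 9 on leaving out single mice, and those called higher 0 (without flox/flox 2) to 2. Those higher numbered 1, 1 and 1 under the limma settings and 0 without flox/flox 3 and hep-/- 3. The Fga/Fgb log2 difference was −1.24 to −0.83 and that of Fgg/Fgb −0.75 to −0.51 without single mice, and −1.22 and −0.77 without both livers, where p in the exact permutation test cannot fall below 0.0667 (4 mice against 2) or 0.1 (3 against 3, and 3 against 2). The share of counts in members, knockout minus control, was −0.41 percentage points, from −0.63 to −0.28 without single mice. Causes of these shifts were not tested. F13a1, the scarcest member, rested on 45 to 81 counts per liver.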
